A study of Ovis aries and Capra hircus and Bos taurus with 26 samples.

Results

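The ends of acrocentric autosomes were taken as the first 3 Mb and the last 3 Mb of cattle chromosomes 1 to 29, goat chromosomes 1 to 29 and sheep chromosomes 4 to 26, and every H3K27ac or H3K4me3 peak with its midpoint there was a member. The members were thus selected on position, together with the measured peak ends that set the distal edge. The first 3 Mb is called the proximal end and the last 3 Mb the distal end, and the distal end was counted back from the highest peak end that any library of the species had on that chromosome. In all, 53344 of the 616400 peaks of the 17 lists (8.65%) were members, with 21498 at proximal and 31846 at distal ends, and 455924 peaks lay in the interior of the same chromosomes. Within single libraries they were 8.65% to 12.7% of the peaks on acrocentric autosomes. Both ends together made up 6.996% of the acrocentric length in cattle, 7.48% in sheep and 7.06% in goats. Because the highest peak end was used in the selection, the presence of a peak at the distal edge is no finding. For the tests of density, the edge was therefore set by the libraries of the other animals of the species. That edge is still a peak end, so a peak-free stretch beyond it is left out. The proximal end starts at the first base and keeps such a stretch. The part of this in the comparison of both ends was not tested.

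An acrocentric chromosome carries its centromere near one end, so one end lies beside centromeric satellite repeats and the other ends in the long arm's telomere. Subtelomeric sequence of mammals is often rich in genes, whereas pericentromeric sequence is often repetitive and hard to assemble. The first mark, acetylation of histone H3 at lysine 27, is found at promoters and enhancers in use. The other, trimethylation at lysine 4, is found mainly at promoters.

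Chromatin immunoprecipitation followed by sequencing (ChIP-seq) was carried out on liver of 9 healthy adult animals. These were 3 Holstein cattle (3 to 4 years old), 3 Texel sheep (2 to 3 years old) and 3 Yunnan black goats (2 to 3 years old). Each group of a species and a mark held animals A, B and C, except H3K27ac in cattle, which held B and C, and the 9 input libraries entered no comparison. Each library had 24809 to 50842 peaks. Cattle reads were placed on ARS-UCD1.2, sheep reads on Oar_rambouillet_v1.0 and goat reads on ARS1, so animals of a species share the same chromosome ends. Their agreement speaks for the animals and not for other assemblies. Whole liver holds several cell types, and a peak list does not tell them apart.

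Whether the first 3 Mb is the same side of the chromosome in each species was checked first, since the names of the ends depend on it. The profile of peaks along the interior (60 equal bins, log2 of the peak number plus 1, ends left out) was compared with that of the cattle counterpart in the same and in the reversed direction. For 15 goat chromosomes the same direction matched better in both marks, with Pearson's r of 0.55 to 0.93 for H3K27ac across bins. For 11 goat chromosomes (2, 3, 4, 7, 10, 12, 15, 17, 26, 27 and 28) the reversed direction did, with r of 0.47 to 0.85 reversed against −0.27 to 0.11 in the same direction for H3K27ac. For H3K4me3, these 11 had r of 0.43 to 0.92 reversed and −0.32 to 0.21 in the same direction. Goat chromosomes 9, 14 and 23 matched in neither direction at r of 0.3 or more in both marks.

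In sheep, 20 of 23 chromosomes matched in the same direction. Chromosomes 8 and 9, the counterparts of cattle 9 and 14, were undetermined. Sheep 11, the counterpart of cattle 19, matched slightly better reversed, with r of 0.30 against 0.17 for H3K27ac and 0.41 against 0.26 for H3K4me3. It thus met the rule by which the 11 goat chromosomes were called reversed, a better match in reverse with r of 0.3 or more in both marks. Thus the first 3 Mb of 11 goat chromosomes in the deposited coordinates corresponds to the side that is last in cattle. On those chromosomes the names proximal and distal do not refer to the same side as in cattle. The tests of density are therefore given as deposited and again with these 11 goat chromosomes turned, an alternative chosen after the data were seen. Goat values are as deposited unless they are said to be turned. Its choice rests on the interior alone. Sheep 11 was left as deposited in all sheep values, and no test was run with it turned.

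**Figure D1:**
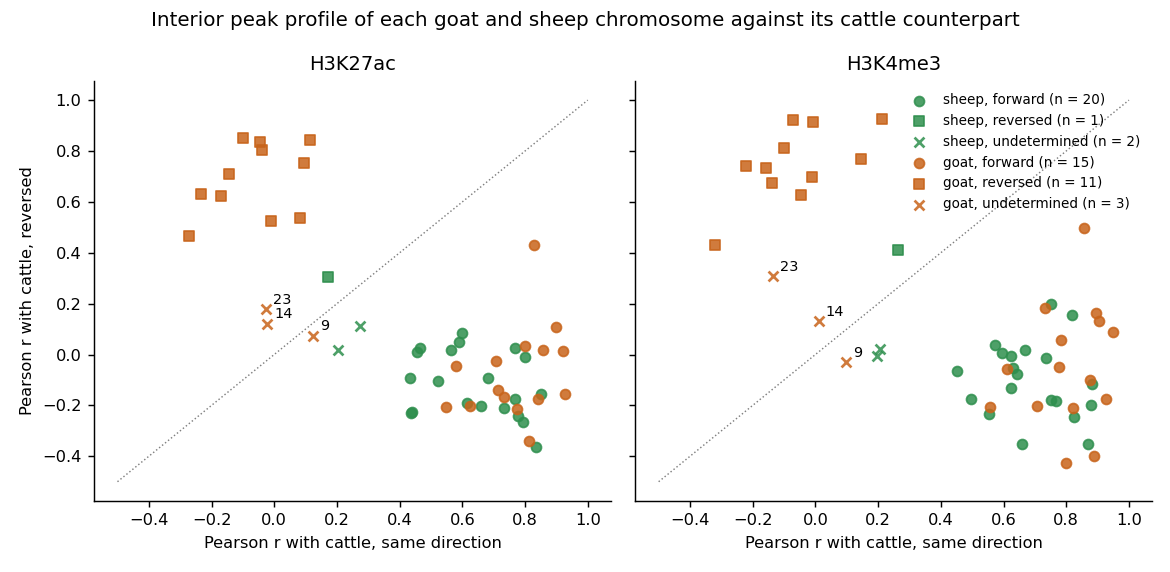
Pearson's r across 60 interior bins between each goat or sheep chromosome and its cattle counterpart, in the same direction (horizontal axis) and reversed (vertical axis), for H3K27ac (left) and H3K4me3 (right). Orange squares are the 11 goat chromosomes that matched cattle better in reverse, the green square is sheep 11, numbers mark the undetermined goat chromosomes 9, 14 and 23, and the dotted line marks equal r.

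Peaks of both marks were denser at the distal ends than in the interior in every library. For H3K27ac in cattle, animal B had 27.6 peaks per Mb at distal ends and 14.99 in the interior, and animal C 29.9 and 16.6. In sheep, animals A, B and C had 26.6, 25.7 and 27.7 H3K27ac peaks per Mb at distal ends against 14.3, 13.3 and 14.9 in the interior. In goats as deposited, they had 21.3, 24.02 and 23.03 against 16.1, 19.4 and 17.3. The distal values of each species lay above all interior values of that species, and goats showed the smallest step. The log2 ratio of distal to interior density averaged 0.86 ± 0.02 for the 2 cattle (SD), 0.92 ± 0.03 for the 3 sheep and 0.37 ± 0.06 for the 3 goats. Over the 8 animals it was 0.70 ± 0.27 (SD), a 1.62-fold density, above 0 in 8 of 8 (two-sided exact sign-flip permutation test over animals, adjusted p = 0.0115). Adjusted p-values here and below are Benjamini-Hochberg values over all 28 tests. The sign-flip tests treat animals as independent, although those of a species share an assembly. Agreement in sign is also common for fixed windows. For cattle H3K27ac, 42% of interior 3 Mb tiles were denser and 52.9% sparser than the interior of their chromosome in every library. With each chromosome given equal weight, the mean log2 ratio for H3K27ac was 0.37 and the adjusted p 0.0761 in the exact test, and with the 11 goat chromosomes also turned it was 0.65 (adjusted p = 0.0104). With the goat chromosomes turned and no such weight, it was 0.85 (adjusted p = 0.0122 in the exact test).

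H3K4me3 showed the larger step. In cattle, animals A, B and C had 23.3, 19.5 and 22.5 H3K4me3 peaks per Mb at distal ends against 9.96, 8.95 and 9.60 in the interior. The values in sheep were 25.1, 25.9 and 25.6 against 9.99, 10.9 and 10.7, and in goats as deposited 15.2, 17.2 and 18.3 against 9.14, 10.5 and 10.7. The log2 ratio averaged 1.19 ± 0.06 for cattle (SD, n = 3), 1.28 ± 0.04 for the 3 sheep and 0.74 ± 0.03 for the 3 goats. Over 9 animals it was 1.07 ± 0.25 (SD), a 2.1-fold density, above 0 in 9 of 9 (exact sign-flip test, adjusted p = 0.00994). The unadjusted p of 0.00391 is the smallest that 9 animals allow. With the goat chromosomes turned, the mean was 1.19 (exact test, adjusted p = 0.0122).

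At the proximal ends the picture differed between the marks. For H3K27ac, cattle B and C had 15.1 and 16.8 peaks per Mb, close to their interior. Sheep A, B and C had 12.8, 12.1 and 13.4 and lay below their interior, while goats A, B and C as deposited had 20.6, 24.4 and 23.01 and lay above it. The log2 ratio for H3K27ac was 0.01 for both cattle and averaged −0.14 ± 0.01 for the 3 sheep (SD) and 0.37 ± 0.04 for the 3 goats, and over 8 animals 0.09 ± 0.24 (SD), which did not pass (exact sign-flip test, adjusted p = 0.337). With the 11 goat chromosomes turned, the goat ratio was −0.18 ± 0.06 (SD, n = 3). The mean over 8 animals was then −0.12 (adjusted p = 0.0398 in the exact test). The sign also turned without turning any goat chromosome, to −0.44 with equal weight for each chromosome (adjusted p = 0.0547), to −0.07 with ends of 5 Mb (adjusted p = 0.312) and to −0.03 against the 3 to 10 Mb beside the ends (adjusted p = 0.782, exact tests).

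For H3K4me3, cattle A, B and C had 14.9, 13.98 and 14.3 peaks per Mb at proximal ends. Sheep had 11.04, 11.1 and 11.1, and goats as deposited 14.2, 16.1 and 16.8. As deposited, the values of cattle and goats lay clear of their interior, and those of sheep just above it in each animal. For sheep animals B and C this rests on the direction of sheep chromosome 11. That chromosome held 74 to 79 H3K4me3 peaks in its first 3 Mb and 34 to 41 in its last. With the 11 chromosomes turned, goats A, B and C had 10, 11.2 and 11.6 and lay just above their interior as well. The log2 ratio averaged 0.60 ± 0.04 for cattle (SD, n = 3), 0.08 ± 0.06 for the 3 sheep and 0.64 ± 0.02 for the 3 goats, with 0.44 ± 0.27 over 9 animals (SD). With sheep 11 as deposited, it was above 0 in 9 of 9 (exact sign-flip test, adjusted p = 0.00994). With the goat chromosomes turned, the goat mean was 0.11 ± 0.02 (SD, n = 3) and that over 9 animals 0.26 (exact test, adjusted p = 0.0122). With equal weight for each chromosome the mean was −0.00022 (adjusted p = 0.996), and with the goat chromosomes also turned −0.21 (adjusted p = 0.101, exact sign-flip tests).

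**Figure D2:**
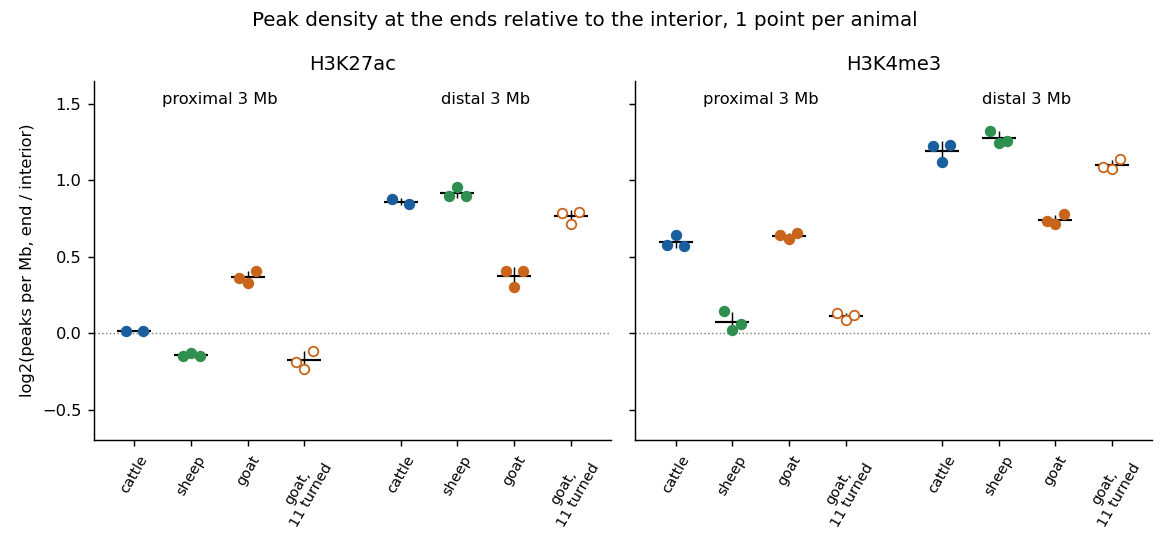
Log2 ratio of peak density at the ends to that of the interior, 1 point per animal, for H3K27ac (left) and H3K4me3 (right), with the mean (horizontal bar) and SD (vertical bar) of each species. Open points are goats with the 11 reversed chromosomes turned, which moved the goat mean at distal ends from 0.37 to 0.77 for H3K27ac and from 0.74 to 1.10 for H3K4me3.

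Distal ends were denser than proximal ends in 7 of 8 animals for H3K27ac (mean log2 ratio 0.61, adjusted p = 0.0298) and in 9 of 9 for H3K4me3 (0.63, adjusted p = 0.00994, both exact sign-flip tests). The exception was goat B, with 24.02 H3K27ac peaks per Mb at distal and 24.4 at proximal ends as deposited. The H3K27ac call was lost when cattle B, cattle C, sheep A, sheep B, sheep C or goat A was left out, with a mean of 0.55 to 0.69 and adjusted p of 0.0547 to 0.0625 in the exact test. With the goat chromosomes turned it was 0.96 for H3K27ac (adjusted p = 0.0122) and 0.93 for H3K4me3 (adjusted p = 0.0122, exact tests).

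As deposited, the species differed at both ends in both marks. Species cannot be told apart here from assembly, breed and the set of chromosomes. The F statistic compares the spread between species with that between animals of a species, and its p came from exact permutation of species labels over animals. At distal ends F was 129 for H3K27ac and 109 for H3K4me3 (adjusted p = 0.00994 for both, permutation). At proximal ends it was 279 for H3K27ac (adjusted p = 0.00994) and 152 for H3K4me3 (adjusted p = 0.0150, permutation). The size of F depended on single animals, although all 4 calls held without any one of them. At distal ends, F for H3K27ac was 238 without goat B, and F for H3K4me3 was 205 without cattle B, 67.4 without goat A and 71 without goat B. At proximal ends, F for H3K27ac was 670 without goat C and 180 without goat A, and F for H3K4me3 was 272 without sheep A and 95.5 without sheep C. With the 11 goat chromosomes turned, F at distal ends was 13.1 for H3K27ac and 9.96 for H3K4me3, and at proximal ends 14.99 and 130. For H3K4me3 at proximal ends, the cattle ratio of 0.60 then stood above 0.08 in sheep and 0.11 ± 0.02 in turned goats (SD, n = 3).

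The log2 ratio was lower for H3K27ac than for H3K4me3 at both ends. The difference, H3K27ac minus H3K4me3 and averaged over species, was −0.35 at distal and −0.36 at proximal ends (mark labels permuted within species, exact, adjusted p = 0.00350 for both). With the marks paired by animal it was −0.35 and −0.33 over 8 animals (exact sign-flip test, adjusted p = 0.0115).

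The goat chromosomes were then taken by direction. On the 11 reversed chromosomes, goats A, B and C had 25.8, 30.2 and 28.2 H3K27ac peaks per Mb in the first 3 Mb and 8.76, 9.42 and 9.73 in the last 3 Mb. On the 15 chromosomes that ran as in cattle, the order was the opposite, with 16.6, 19.9 and 18.9 in the first 3 Mb and 31.6, 35.9 and 34.2 in the last. For H3K4me3 the reversed chromosomes had 17.5, 20.4 and 20.8 peaks per Mb in the first 3 Mb and 6.36, 7.36 and 7.12 in the last, and the others 11.9, 13 and 13.8 in the first and 22.8, 25.6 and 27.6 in the last. No animal overlapped between the first and the last 3 Mb in either set.

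Density at distal ends was highest in the outermost 1 Mb. In the last 1 Mb, cattle had 33.9 H3K27ac peaks per Mb (33.4 to 34.4 over 2 animals), sheep 32.6 (31.9 to 34.0 over 3) and goats 26.9 as deposited (25.4 to 28.5 over 3). For H3K4me3 the last 1 Mb held 28.6 peaks per Mb in cattle, 32.4 in sheep and 21.3 in goats. Turned, the last 1 Mb of goats held 34.2 H3K27ac (32.3 to 36.5) and 26.6 H3K4me3 peaks per Mb. Both marks fell step by step over the 3 Mb in all species. Just inside the 3 Mb limit, at 2 to 3 Mb, there were 23.3 H3K27ac peaks per Mb in cattle, 19.8 in sheep and 18.6 in goats, and just outside it, at 3 to 4 Mb, 21.1, 17.2 and 22.2. For H3K4me3 the values were 16.4, 18.1 and 13.3 inside and 14.2, 15.3 and 15.7 outside. The goat rise across the limit was seen only as deposited, since turned goats had 25.3 inside and 22.8 outside for H3K27ac, and 17.2 and 16.4 for H3K4me3. Density at 3 to 4 Mb thus remained above the interior mean, and against the 3 to 10 Mb beside the ends alone the distal log2 ratio was 0.58 for H3K27ac (adjusted p = 0.0146) and 0.84 for H3K4me3 (adjusted p = 0.0122, exact sign-flip tests).

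On the proximal side, 2 to 3 Mb held 13.7 H3K27ac peaks per Mb in cattle, 9.80 in sheep and 19.9 in goats, and 3 to 4 Mb held 10.9, 11.3 and 16.6. Turned goats had 13.2 and then 16.03, which is the opposite direction across the limit. Nearest the start, cattle H3K4me3 stood apart in the first 1 Mb. H3K4me3 had 22.9 peaks per Mb there (22.4 to 23.4 over 3 animals) but 10.8 at 1 to 2 Mb and 9.4 at 2 to 3 Mb, so that 52.4% to 54.4% of the cattle H3K4me3 members at proximal ends lay in that 1 Mb of the 3. In sheep this share was 33.2% to 34.0%, and in goats 35.7% to 37.3%. These cattle peaks were narrow. Their median width was 465 bp in animal A, 406 bp in B and 435 bp in C, with medians of 753 to 879 bp at 1 to 2 Mb of the same chromosomes. Of the cattle B and C H3K4me3 peaks in the first 1 Mb, 34.1% to 44.1% had no H3K27ac peak in the same animal, against 23.3% to 26.02% at 1 to 2 Mb. Chromosome 13 held the most, with 72, 69 and 66 H3K4me3 peaks in its first 1 Mb in animals A, B and C.

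**Figure D3:**
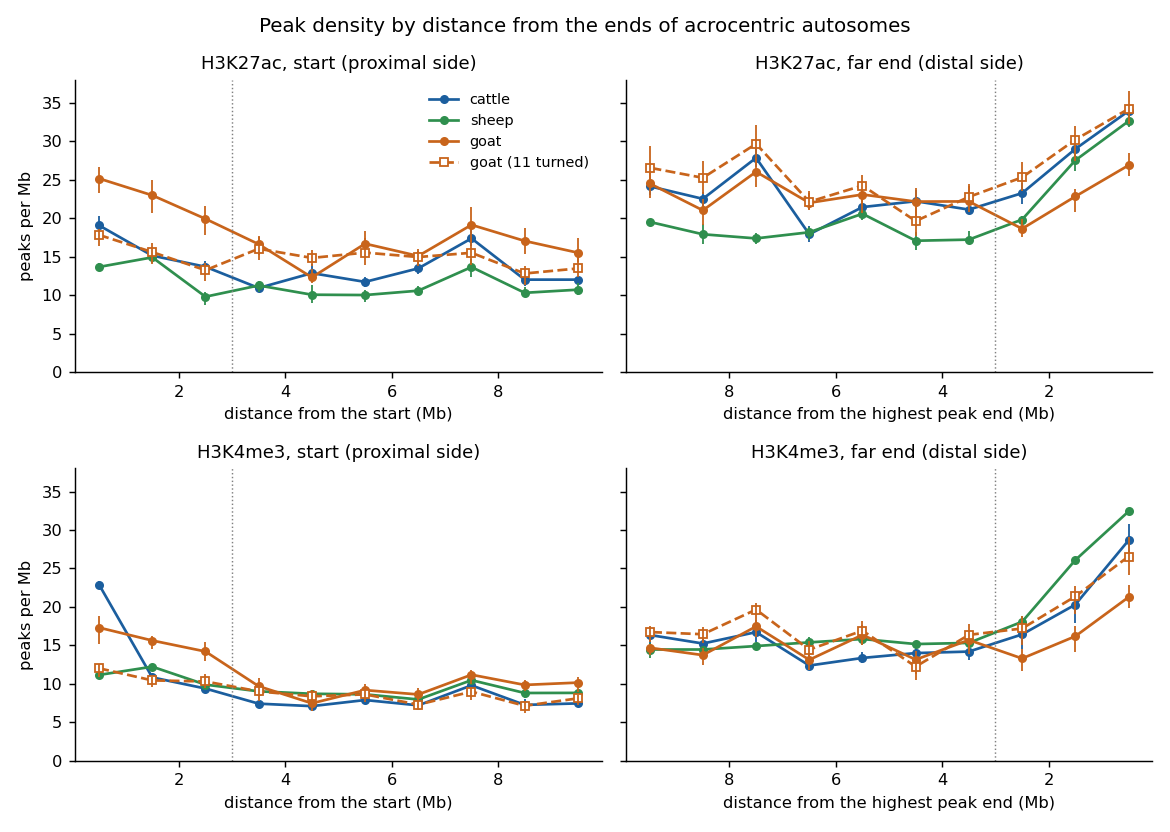
Peaks per Mb in 1 Mb steps from the start (left) and from the highest peak end (right) for H3K27ac (top) and H3K4me3 (bottom), as the mean over animals with the lowest and highest animal as a vertical line. The dotted line marks the 3 Mb limit, the dashed line shows goats with 11 chromosomes turned, and the cattle H3K4me3 line starts at 22.9 and falls to 10.8 in the next step.

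Members differed from interior peaks in how often the marks met. Of the H3K27ac peaks at distal ends, 46.8% and 45.2% in cattle B and C lay apart from every H3K4me3 peak of that animal, against 54.2% and 56.9% in the interior. In sheep A, B and C it was 34.9%, 30.01% and 31.9% against 47.5%, 40.6% and 45.7%, and in goats 39.8%, 39.7% and 36.9% against 50.8%, 52.2% and 49.4%. Each animal was lower at the distal ends than in its own interior. The difference was −11.5 percentage points over 8 animals, below 0 in 8 of 8 (exact sign-flip test, adjusted p = 0.0115). At proximal ends it was −10.1 points, also in 8 of 8 (exact sign-flip test, adjusted p = 0.0115). There it averaged −17.2 points for the 2 cattle, −6.42 ± 1.17 for the 3 sheep (SD) and −8.995 ± 0.56 for the 3 goats. The cattle share was uneven over the 3 Mb. In animals B and C it was 26.6% and 26.1% in the first 1 Mb, 42.4% and 45.0% at 1 to 2 Mb, and 47.6% and 50.5% at 2 to 3 Mb.

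In the other direction, H3K4me3 peaks without H3K27ac were slightly more frequent at the ends. The difference was 2.01 points at distal and 3.25 points at proximal ends, above 0 in 8 of 8 animals for both (exact sign-flip tests, adjusted p = 0.0115). The density of H3K4me3 peaks was also higher at the ends (above), and its part in these shares was not tested. When overlap required that 1 peak of the other mark cover at least 50% of the length, the H3K4me3 difference at distal ends was 1.75 points and did not pass (exact sign-flip test, adjusted p = 0.140). It did not pass either with ends of 1 Mb (1.03 points) or the 20000 strongest peaks (0.46 points), nor did that at proximal ends without the outermost 1 Mb (1.31 points) or with the 20000 strongest peaks (2.18 points).

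The same was seen in consensus regions, which are peaks found in at least 2 animals and merged. Promoters here are consensus H3K27ac regions of which consensus H3K4me3 covers 50% or more, and they numbered 13.8 per Mb at distal ends and 6.26 in the interior in cattle, 16.6 and 7.22 in sheep, and 12.6 and 7.93 in goats as deposited. Enhancers, those with no H3K4me3 overlap, numbered 8.18 and 5.43 per Mb in cattle, 6.70 and 5.07 in sheep, and 7.47 and 7.62 in goats. Distal promoter density was thus 2.20, 2.30 and 1.59 times that of the interior in cattle, sheep and goats, and distal enhancer density 1.51, 1.32 and 0.98 times. Turned, the goat ratios at distal ends were 2.04 for promoters and 1.33 for enhancers. At proximal ends the enhancers were fewer per Mb than in the interior in cattle (0.70 times) and sheep (0.81 times), and 1.05 times in goats as deposited but 0.69 times turned. Proximal promoter density was 1.38 times that of the interior in cattle, 1.03 times in sheep, and 1.51 times in goats as deposited but 1.05 times turned. These ratios come from 1 consensus per species and have no replicate spread.

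**Figure D4:**
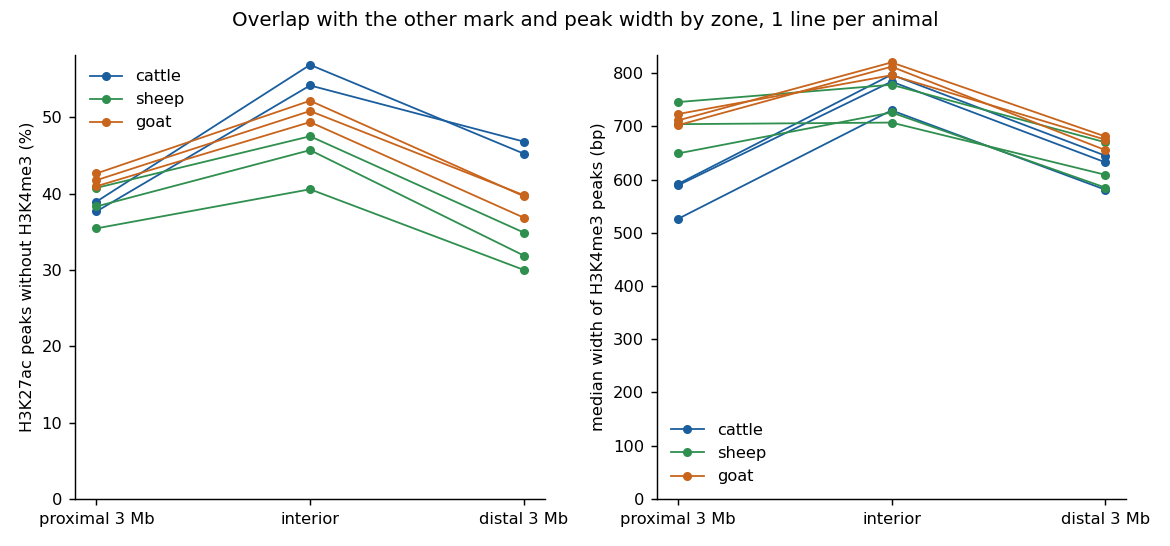
Share of H3K27ac peaks without an H3K4me3 peak of the same animal (left, percent) and median width of H3K4me3 peaks (right, bp) in the proximal 3 Mb, the interior and the distal 3 Mb, 1 line per animal. Every line is lower at both ends than in the interior.

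H3K4me3 peaks were narrower at the ends. In cattle A, B and C the median width was 645, 581 and 632 bp at distal ends against 797, 730 and 784 bp in the interior. In sheep it was 585, 609 and 670 bp against 726, 707 and 778 bp, and in goats 656, 675 and 681 bp against 812, 796 and 820 bp. All 9 animals were lower at the distal ends, with a mean log2 ratio of −0.28, or 0.825 times the interior width (exact sign-flip test, adjusted p = 0.00994). At proximal ends the mean was −0.23 (exact sign-flip test, adjusted p = 0.00994), from −0.44 ± 0.03 for cattle (SD, n = 3), −0.08 ± 0.08 for sheep and −0.18 ± 0.04 for goats, which was −0.09 ± 0.03 turned. Without the outermost 1 Mb it was −0.06 and did not pass (exact test, adjusted p = 0.139). H3K27ac widths did not pass at either end, with mean log2 ratios of 0.04 distally (adjusted p = 0.0820) and 0.01 proximally (adjusted p = 0.477, exact sign-flip tests).

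Fold enrichment, the ratio to background that the peak caller gave at the summit, moved little. The median for H3K4me3 was 5.93 to 6.99 at distal ends and 6.55 to 7.59 in the interior over 9 libraries, lower distally in 9 of 9 animals (mean log2 ratio −0.16, exact sign-flip test, adjusted p = 0.00994). At proximal ends it was lower in 7 of 9 (−0.05, exact test, adjusted p = 0.0523), and with the goat chromosomes turned in 4 of 9 (−0.0094, adjusted p = 0.587), where the goat mean went from −0.12 to 0.02. For H3K27ac the median was higher in 8 of 8 animals at both ends, by 0.04 distally and 0.09 proximally on the log2 scale (exact tests, adjusted p = 0.0115 for both). The distal H3K27ac difference did not keep its sign within either kind of peak. It was −0.05 among peaks that overlapped H3K4me3 and −0.01 among those that did not, and at proximal ends it was 0.05 (adjusted p = 0.173) and 0.01 (adjusted p = 0.379, exact sign-flip tests).

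A peak was called recurrent when 1 peak of another animal of the species covered at least 50% of its length. For H3K27ac, 67.9% to 86.4% of distal peaks and 63.2% to 85.9% of interior peaks were recurrent over 8 libraries. The difference was 2.41 points distally, above 0 in 8 of 8 animals (adjusted p = 0.0115), and 2.68 points proximally, in 7 of 8 (adjusted p = 0.0298, exact sign-flip tests). Among H3K27ac peaks that overlapped H3K4me3 it was −0.71 points at both ends, and among those that did not −0.65 distally and 1.05 proximally, none of which passed. Leaving out sheep C lost the distal call (exact test, adjusted p = 0.0571). The proximal call was lost without cattle B, cattle C, sheep A, sheep B, sheep C or goat A, with 1.58 to 2.96 points and adjusted p of 0.0547 to 0.114. For H3K4me3, recurrence differed by −1.25 points distally (adjusted p = 0.0919) and −0.71 proximally (adjusted p = 0.340, exact sign-flip tests).

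Single chromosome ends were then described, with an end called denser when it had more peaks per Mb than the interior of its own chromosome in every library of the species and mark. As the background, the same was asked of 3 Mb tiles of the interior. In cattle, 25 of 29 distal ends were denser for H3K27ac and 26 of 29 for H3K4me3, where 42% and 37.9% of the interior tiles were. In sheep it was 18 and 20 of 23 distal ends, with 38.7% and 37.5% of the tiles. In goats as deposited it was 13 and 15 of 29, with 41.3% and 37.9%, which is nearer to the background, and turned it was 23 and 24 of 29. Among the 11 reversed goat chromosomes, 0 distal ends were denser for H3K27ac and 1 for H3K4me3, whereas 10 of the 11 proximal ends were denser for each mark.

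Most proximal ends were sparser in sheep, but so were most interior tiles. An end was sparser when its density was below that of the interior in every library. This held for 17 of 23 proximal ends for H3K27ac (73.9%) and 16 of 23 for H3K4me3 (69.6%), against 52.3% and 57.3% of the tiles. In cattle 19 of 29 proximal ends were sparser for H3K27ac and 9 of 29 for H3K4me3, with tiles at 52.9% and 53.2%. In goats as deposited 11 of 29 were sparser for H3K27ac and 10 of 29 for H3K4me3, with tiles at 50.8% and 56.1%. Turned, 20 and 18 of 29 goat proximal ends were sparser. Denser proximal ends numbered 7 and 16 of 29 in cattle, 4 and 5 of 23 in sheep, and 18 and 17 of 29 in goats, for H3K27ac and H3K4me3 in that order, beside the 37.5% to 42% of tiles given above. Turned, 8 of 29 goat proximal ends were denser for each mark.

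Ends varied widely among chromosomes. The number of consensus regions of both marks in a distal end ran from 23 to 258 in cattle (median 119), from 31 to 313 in sheep (median 138) and from 2 to 267 in goats as deposited (median 87). In a proximal end it ran from 7 to 341 in cattle (median 53), from 5 to 361 in sheep (median 42) and from 10 to 377 in goats (median 102). With the goat chromosomes turned, the goat median was 140 at distal and 55 at proximal ends, so that the order of both ends reversed. In cattle and sheep, the proximal ends were the more uneven. Their 3 richest chromosomes held 31.1% of all proximal regions in cattle and 43.8% in sheep, against 18.3% and 24.5% at distal ends, whereas in goats the shares were 25.2% and 24.1% as deposited and 33.3% and 18.6% turned. The sheep shares hold sheep 11 as deposited, with 183 regions in its first and 85 in its last 3 Mb.

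The richest proximal ends included the same counterpart in all 3 species. Cattle 25, sheep 24 and goat 25 had 341, 361 and 377 consensus regions in their first 3 Mb, 3.10, 3.29 and 3.0 times the density of their own interior. Cattle 14 followed with 218 and cattle 16 with 157. In sheep, chromosomes 11 and 12 had 183 and 123, and in goats, chromosomes 17 and 10 had 212 and 188, both of them among the reversed. Turned, the goat proximal ends that followed 25 were those of 23 and 16 with 174 and 158. Goat 23 is of undetermined direction and was not turned, and its last 3 Mb held 11. Sheep 11, whose direction is in doubt, had 85 at its other end. The sparsest proximal ends were those of cattle 6, 19 and 15 with 7, 12 and 24 regions, sheep 4, 6 and 20 with 5, 9 and 10, and goats 19, 6 and 27 with 10, 17 and 27, where goat 13 tied with goat 27. Turned, the sparsest goat proximal ends were those of 4, 19 and 12 with 2, 10 and 16, ahead of 6 with 17. On cattle 6, no library had a peak before position 2105816. Chromosome 6 was thus sparse at its start in all 3 species.

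The richest distal ends were those of cattle 17, 21 and 22 with 258, 214 and 213 consensus regions, of sheep 17, 21 and 18 with 313, 252 and 251, and of goats 11, 21 and 22 with 267, 257 and 252. Sheep 17 is the counterpart of cattle 17, and its distal end had 4.88 times the density of its interior. The sparsest distal ends were those of cattle 27, 1 and 20 with 23, 59 and 61, sheep 26, 16 and 13 with 31, 60 and 69, and goats 4, 23 and 12 with 2, 11 and 16. Goats 4 and 12 are among the reversed, and turned the sparsest goat distal ends were those of 23, 27 and 14 with 11, 27 and 52. Cattle 27 and sheep 26, which are counterparts, were the sparsest of their species, and both lay below the density of their own interior. The last 3 Mb of goat 4 held 2 regions and its first 3 Mb 102. Goats 23 and 14, of undetermined direction, had 174 and 114 in their first 3 Mb.

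Matching ends of cattle and goats resembled each other more once the reversed goat chromosomes were turned. Across the 26 goat chromosomes with a direction, the number of consensus regions had Pearson's r of 0.67 with cattle for proximal and 0.63 for distal ends as deposited, and 0.94 and 0.83 turned (Spearman's rho 0.77 and 0.83 turned). Across 21 sheep chromosomes r with cattle was 0.82 for proximal and 0.92 for distal ends (rho 0.61 and 0.88). These are descriptions over chromosomes, which share ancestry and, within a species, libraries. A clear exception was cattle 13, with 113 consensus regions in its first 3 Mb beside 35 in sheep 13 and 27 in goat 13. Sheep 11, with 183 in its first 3 Mb and 85 in its last, stood against cattle 19 with 12 and 166 and goat 19 with 10 and 207.

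**Figure D5:**
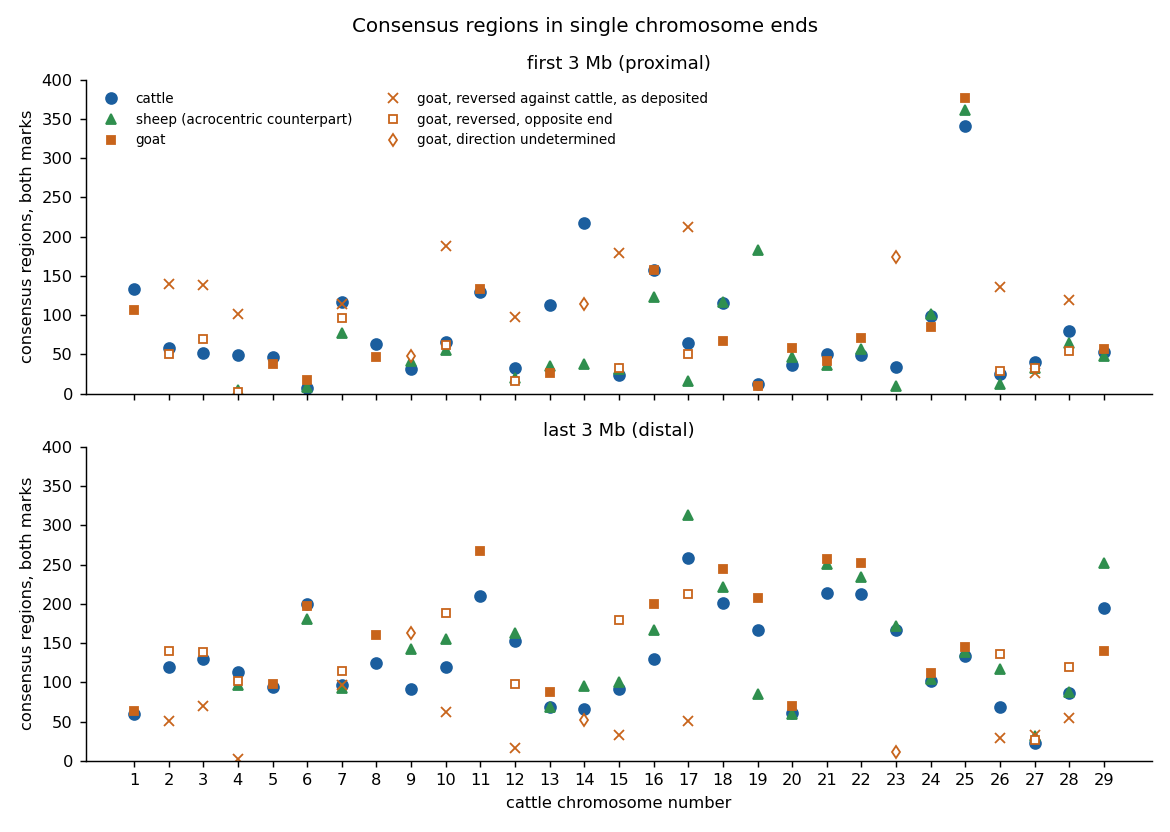
Number of consensus regions of both marks in the first 3 Mb (top) and last 3 Mb (bottom) of each acrocentric autosome, placed by its cattle counterpart. Crosses are the 11 reversed goat chromosomes as deposited and open squares their opposite ends, and cattle 25 with its counterparts stands highest at the top with 341 to 377 regions.

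Consensus regions were ranked by −log10 q among all peaks of each library, and the region whose lowest-placed rank was best is given for each species, end and mark. For H3K27ac at distal ends of cattle it was chr15:84897650-84898200 (ARS-UCD1.2, 551 bp), with rank 1 in 2 libraries and a fold enrichment of 31.2 to 31.6. The best H3K4me3 region overlapped it, at chr15:84897633-84898209, with rank 2 or better in 3 libraries and a fold enrichment of 25.2 to 27.5. It ended 59123 bp before the last peak end of the chromosome. At proximal ends in cattle the best were chr13:1674-2169 for H3K27ac (fold enrichment 26.7 to 30.8) and chr16:134001-134559 for H3K4me3 (28.7 to 29.6). Gene annotation of these builds was not used here, so no gene is named for any region.

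In sheep (Oar_rambouillet_v1.0), 1 place led for both marks at proximal ends, with chr14:410575-411064 for H3K27ac (fold enrichment 29.6 to 31.6) and chr14:410491-411074 for H3K4me3 (21.1 to 23.7). At distal ends the best were chr14:71068070-71069316 for H3K27ac (12.8 to 14.9) and chr7:107547143-107548140 for H3K4me3 (12.7 to 15.2). In goats (ARS1), chr19:3086-4064 led for H3K27ac (10.8 to 11.6) and chr19:2506-4052 for H3K4me3 (6.202 to 8.06) at proximal ends. At distal ends chr7:108432857-108433305 led for H3K27ac (12.95 to 15.01) and chr15:81903022-81903606 for H3K4me3 (15.6 to 17.995), and these ended 280 and 670 bp before the last peak end of their chromosomes. Goat 7 and 15 are among the reversed. Turned, the H3K27ac leader at proximal ends of goats was still the one on chromosome 19, and the H3K4me3 leader there was the one on chromosome 15. At distal ends chr14:94670861-94671620 then led for H3K27ac (13.2 to 14.8) and chr14:94670860-94671645 for H3K4me3 (7.58 to 10.4), on a chromosome of undetermined direction.

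Some consensus regions began at the very first bases of a sequence. The nearest to the start were chr2:111-460 in cattle (H3K27ac), chr15:2981-3456 in sheep (H3K4me3) and chr6:27-421 in goats (H3K4me3, with no consensus H3K27ac). At the other end, the regions nearest to the edge ended on it by construction, namely chr2:136227062-136227719 in cattle (H3K27ac), chr4:130039100-130039522 in sheep (H3K27ac, the only one of these 3 without H3K4me3 overlap) and chr2:135602527-135604208 in goats (H3K4me3, on a reversed chromosome). The lowest peak start on a chromosome lay within 100 kb of the sequence start on 24 of 29 cattle, 17 of 23 sheep and 26 of 29 goat chromosomes.

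The widest consensus regions in cattle were chr13:373211-375898 at proximal ends (H3K27ac, 2688 bp, fold enrichment 5.9995 to 7.16) and chr16:81001623-81005905 at distal ends (H3K4me3, 4283 bp, 2.83 to 3.56). In sheep they were chr24:1305259-1308334 (3076 bp) and chr19:61126975-61129721 (2747 bp), and in goats chr25:1260540-1263563 (3024 bp) and chr18:67061181-67064075 (2895 bp), all of H3K4me3. Sheep 24 and goat 25, counterparts of each other, both had their widest proximal region in the second 1 Mb.

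The metacentric sheep chromosomes 1 to 3, which have 2 long arms, were left out. Their first 3 Mb held 25.3 to 48 H3K27ac peaks and 21 to 45 H3K4me3 peaks per Mb over the 3 animals, against 11.2 to 16.5 and 7.69 to 11.5 in their interior. The last 3 Mb of chromosome 1 lay near its interior for H3K27ac, with 12.7 to 14 against 12.2 to 13.6, while that of chromosome 2 held 22 to 25.7 against 11.2 to 12.5. On chromosome 3 it held 16.3 to 18.3 against 14.9 to 16.5. For H3K4me3 the last 3 Mb lay above the interior on each. The values were 10.3 to 11.3 against 8.61 to 9.60 on chromosome 1, 21.7 to 24.7 against 7.69 to 8.64 on chromosome 2, and 17.3 to 18.7 against 10.5 to 11.5 on chromosome 3.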

How the data were processed

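The authors aligned liver ChIP-seq reads with BWA 0.7.17, removed duplicates with Picard 2.25.0 and called narrow peaks per library with MACS2 2.1.1. According to the methods, alignments of mapping quality 0 were removed and all paired-end libraries were subsampled to the same depth. A peak list carries no read number, so depth was not measured here, intervals that need it are not given, and precision rests on 2 or 3 animals per group. The deposited lists give a fold enrichment (a ratio to background), the p-value and the q-value, each as −log10, and a score derived from −log10 q, which was not used. The lowest −log10 q of a list was 2.00 in all 17. GEO's processing notes name ARS-UCD1.2 for all samples, whereas the methods give 1 build per species, and sequence names follow the latter.

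The 840697 rows were joined into 616400 peaks where rows shared an interval, keeping the highest fold enrichment and −log10 q. Groups follow species and mark in the sample titles. Replicate lists shared at most 0.0135% of identical intervals in 16 pairs, so none was counted as a repeat deposit. A peak belongs to an end or the interior by its midpoint. Per library, the end was compared with the interior by log2 peaks per Mb, log2 median width, log2 median fold enrichment, and the percentage of recurrent peaks and of peaks without the other mark. Tests were exact and two-sided. The sign of each animal's difference was flipped (smallest p 0.00391 for 9 animals and 0.00781 for 8), mark labels were permuted within species (4000 arrangements), and species labels were permuted for F, which has no direction (1680 or 560 arrangements). The threshold was an adjusted p of 0.05 over 28 tests, of which 22 passed.

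Within a species the animal letter marks libraries of the same liver, so it pairs the marks. Deviations of the log2 density ratio from the species mean correlated between the marks of 8 animals with Pearson's r of −0.06 (p = 0.903) and Spearman's rho of −0.12 (p = 0.778) at distal ends, and 0.05 (p = 0.931) and −0.10 (p = 0.875) at proximal ends, in exact tests that permuted letters (72 arrangements). Leaving out the 2 animals with the most extreme values gave r of −0.28 and −0.63.

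Counterparts of cattle chromosomes in sheep follow the standard karyotypes, and goat numbers are those of cattle. Named regions were, for each species, end and mark, the consensus region with the best lowest-placed −log10 q rank, and per species and end the region nearest the end, the widest, and the 3 chromosomes with the most and the fewest consensus regions. The members and lists were chosen with earlier results of these data known. Alternatives were other end lengths, peak filters, interiors, overlap rules and weights, and leaving out each animal, and 3 were added after seeing the data. Scripts were tested on simulated data. Python 3.11.15, numpy 2.4.6, pandas 2.3.3, scipy 1.17.1 and matplotlib 3.10.9 were used. Sequences are not printed, since a genome of these builds was not used here.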

Additional observations from a re-analysis of the deposited data

Results flagged for a closer look

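Peak density at the ends relative to the interior differed between species in 4 tests, by permutation of species labels over animals. Species cannot be told apart from assembly and breed in these tests. F was 129 for H3K27ac and 109 for H3K4me3 at distal ends, and 279 and 152 at proximal ends. Leaving out 1 animal at a time gave F of 101 to 238 and 67.4 to 205 at distal ends, and of 180 to 670 and 95.5 to 272 at proximal ends, in the same order of marks. The values were most extreme without cattle B, goat A, goat B, goat C, sheep A or sheep C. As deposited, goats had the lowest ratio at distal ends in both marks, and sheep the lowest at proximal ends. With 11 goat chromosomes turned, goats remained lowest at distal ends (0.77 and 1.10), but at proximal ends the goat mean for H3K27ac (−0.18) lay below that of sheep (−0.14), while sheep stayed lowest for H3K4me3. This H3K27ac order holds with sheep 11 as deposited and depends on its direction. Sheep 11 held 106 to 136 H3K27ac peaks in its first 3 Mb and 46 to 63 in its last. With these chromosomes turned, F was 13.1 and 9.96 at distal ends and 14.99 and 130 at proximal ends, and all 4 adjusted p-values of the permutation tests lay between 0.0122 and 0.0238.

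The marks differed as well. The log2 ratio of end to interior density was lower for H3K27ac than for H3K4me3 by a difference of −0.353 at distal and −0.358 at proximal ends (exact permutation within species, adjusted p = 0.00350 for both), which is 0.78 times on the linear scale at both ends.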

How the results depend on the processing

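Of 302 comparisons with other settings, 20 lost the call, 11 gained it, and 15 turned in sign with a call under at least 1 of both settings. Another 11 changed sign with no call under either, 3 of them for H3K27ac proximal density (−0.07 with ends of 5 Mb, −0.03 against 3 to 10 Mb and −0.44 with equal weight per chromosome). The others kept direction and side of the threshold. The distal density of H3K4me3 and the difference between the marks kept both under all settings run. The size of the difference between the marks was less stable, from −0.43 to −0.077 at distal and from −0.48 to −0.19 at proximal ends. Differences in density, width and fold enrichment below are log2, and those in recurrence and overlap are percentage points; the cause of a change was not tested. With the marks paired by animal as a replicate block, the difference between marks was −0.35 at distal and −0.33 at proximal ends, which changed no call.

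With ends of 1 Mb, H3K27ac distal width gained a call (0.082), as did H3K4me3 proximal fold enrichment (−0.10), while H3K27ac proximal recurrence (3.63) and distal H3K4me3 without H3K27ac (1.03) lost theirs. With ends of 5 Mb, H3K27ac proximal recurrence (1.48) lost its call, and H3K4me3 distal recurrence (−1.43) and proximal fold enrichment (−0.066) gained one. With a −log10 q of at least 5, H3K27ac proximal width turned (−0.042), its recurrence lost the call (2.51) and H3K4me3 proximal fold enrichment gained one (−0.064). With the 20000 strongest peaks, H3K27ac width turned at distal (−0.13) and proximal ends (−0.12), as did its distal fold enrichment (−0.018). There, H3K27ac proximal density (0.27), H3K4me3 distal recurrence (−1.39) and proximal fold enrichment (−0.066) gained calls. H3K27ac proximal fold enrichment (0.076) and recurrence (1.997) and H3K4me3 without H3K27ac at distal (0.46) and proximal ends (2.18) lost theirs. With peaks within 500 bp merged, H3K27ac proximal width gained a call (0.050).

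With equal weight per chromosome, H3K27ac distal density (0.37) and distal against proximal density (0.82) lost their calls, and H3K4me3 proximal density turned (−0.00022). With the mean share over other animals, H3K4me3 distal recurrence gained a call (−2.25), and with 50% overlap between marks, distal H3K4me3 without H3K27ac lost it (1.75). Among H3K27ac peaks that overlapped H3K4me3, width turned at distal (−0.16) and proximal ends (−0.15), as did distal fold enrichment (−0.054) and recurrence at both ends (−0.710 and −0.712), and proximal fold enrichment lost its call (0.055). Among those without overlap, distal fold enrichment (−0.0062) and recurrence (−0.65) turned, and proximal fold enrichment (0.012) and recurrence (1.05) lost their calls.

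Added after seeing the data, turning 11 goat chromosomes turned the sign of H3K27ac proximal density (−0.12) and cost its recurrence the call (2.55). With equal weight per chromosome as well, proximal density was −0.72 for H3K27ac and −0.21 for H3K4me3, both turned. Without the outermost 1 Mb, calls were lost for H3K27ac distal fold enrichment (0.00092), distal recurrence (1.31) and distal against proximal density (0.55), and for H3K4me3 proximal width (−0.062) and proximal H3K4me3 without H3K27ac (1.31), and H3K4me3 distal recurrence gained one (−2.10).

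Leaving out each animal in turn kept 235 of 252 comparisons, with 13 calls lost and 4 gained. The values ran from 0.546 to 0.704 for H3K27ac distal against proximal density, from 1.90 to 2.77 for its distal and from 1.58 to 3.17 for its proximal recurrence, from −1.82 to −1.20 for H3K4me3 distal recurrence, from −0.067 to −0.044 for H3K4me3 proximal fold enrichment, and from 0.028 to 0.048 for H3K27ac distal width.

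The lists give no read numbers, so what depth limits was not measured, and 2 or 3 animals per group limit the precision. All animals of a species share 1 assembly, so the ends of the assembly and those of the chromosome cannot be told apart. Whole liver gives no cell types.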
